A study of Homo sapiens with 12 samples.

Results

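The genes described here lie on the short arm of human chromosome 5 (5p). They were chosen by a rule that took every gene starting between 0 and 50.8 Mb of chromosome 5 on the GRCh38 build with a mean of at least 100 counts over the 6 cytoplasmic libraries. The rule treated the first 2 Mb, at the end of the chromosome, as the tip and kept it apart from the remainder of the arm. It left out 8 genes of the arm (SDHA, NDUFS6, MRPL36, NUP155, TARS1, RPL37, MRPS30 and HMGCS1). It kept 112 genes, 27 in the tip and 85 in the rest of the arm, of 14559 genes with that minimum count and 61860 genes listed in all. The annotation places 729 listed genes on the arm, of which 609 were below the minimum and 286 had no count in any of the 12 libraries. The tip members are 18 protein-coding genes, 7 long non-coding RNAs and 2 pseudogenes, and the rest of the arm holds 64 protein-coding genes, 17 long non-coding RNAs and 4 pseudogenes. Together they took between 0.501% and 0.796% of the counts of a library.

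Neighbouring genes on a chromosome arm often have unrelated functions, but they usually share their DNA copy number. In cultured cells the RNA of a gene usually follows its copy number. HEK293 cells carry an abnormal and variable set of chromosomes, and clones of the line can differ in the number of copies of an arm or of its end. The end of 5p is well known for TERT, the catalytic subunit of telomerase, and gains of 5p are common in tumours. Copy number was not measured in these samples, and the values here are RNA levels only.

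Both cell lines were made in Flp-In T-REx cells, a HEK293 line with a single integration site and a doxycycline-controlled promoter. Both lines carried chained microRNAs against the endogenous PGC-1α, a transcriptional coactivator of energy metabolism. The WT-res line also carried a FLAG-tagged, RNAi-resistant wild-type PGC-1α, and the ΔRS-res line carried the same protein without its arginine-serine (RS) domain. Each line came from a selected hygromycin-resistant clone, so that a difference between clones and a difference between transgenes cannot be told apart. All cultures received 1 µg/ml doxycycline for 6 days. For each line, RNA of the whole cell and RNA of the cytoplasmic fraction were sequenced from 3 consecutive passages, which gave 4 groups of 3 libraries, and the study used these to ask which transcripts need the RS domain to reach the cytoplasm. The p-values below therefore measure the spread between passages of 1 clone per line.

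Levels below are in CPM, the counts of a gene scaled to the same total in every library. The libraries held between 90333190 and 144628005 estimated counts. PPARGC1A, which encodes PGC-1α, had between 31154 and 88737 counts in the 12 libraries, and since the rescue transcript carries most of the same sequence this does not check the knockdown. The HEK293 markers VIM, NEFL, PAX2, LHX1 and SOX2 had at least 186 counts in every library and NEFM had 25 to 72, whereas UMOD, AQP2 and SLC12A1, markers of the differentiated kidney, had 0 to 2 and NPHS1, also of that list, had 5 to 20. Of the markers of other cell types, PTPRC had 0 to 4, PECAM1 4 to 15 and ALB 5 to 16 counts. The fibroblast marker COL1A1 of that list was not low, at 322 to 757 counts beside 286 to 789 for PAX2. In whole-cell RNA, the library labelled WT-res replicate 3 stood apart on 5p and went against its label. For 27 of 27 tip members its level was nearer to the mean of the 3 ΔRS-res whole-cell libraries than to the mean of the other 2 WT-res ones, against 57.4% of all genes with the minimum count. For the rest of the arm this held for 68 of 85 members. Whole-cell results are therefore given without this library and, for each group of genes, also with all 6 libraries. With all 6 and line as the only factor, edgeR called no member. With the replicate number as a block it called 11 members of the rest of the arm higher and 1 lower. The 6-library results of the groups below are from the fit on line alone. Leaving the library out was decided on its levels of these same members, which widens the gap between the lines. The calls and adjusted p without it are thus a description and no independent test.

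**Figure D1:**
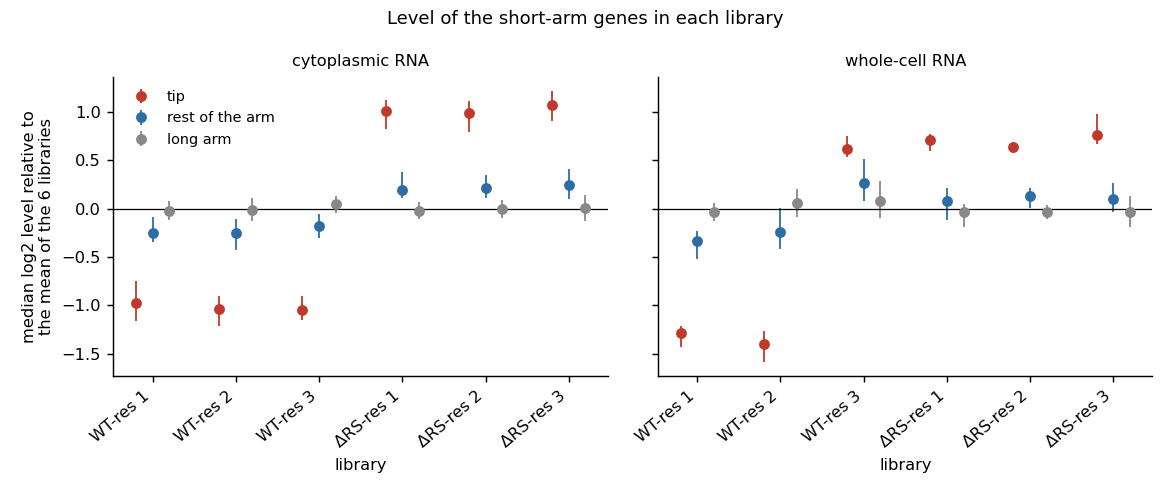
Median log2 level of the 27 tip genes (red), the 85 genes of the rest of the arm (blue) and 541 genes of the long arm (grey) in each library, relative to the mean of the 6 libraries of the same RNA fraction; bars span the quartiles over genes. In cytoplasmic RNA the tip ran from -1.05 to -0.98 for WT-res and from 0.99 to 1.07 for ΔRS-res, and in whole-cell RNA the library labelled WT-res 3 lay at 0.62 beside the ΔRS-res libraries.

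The tip and the rest of the arm differed in their median levels. Each median pools genes whose shift changed along the arm, as given below. Relative to the mean of the 3 ΔRS-res libraries, the median tip gene stood at 0.262, 0.234 and 0.236 of that level in the WT-res cytoplasmic libraries 1, 2 and 3. PDCD6-AHRR had no count in WT-res replicate 3, whose median is over 26 genes. The median gene of the rest of the arm stood at 0.740, 0.738 and 0.762. The 541 genes of the long arm with the same minimum stood at 0.987, 0.996 and 1.03, and the genes of the other chromosomes at 0.986, 0.998 and 1.00. The tip was thus low in each WT-res cytoplasmic library and the rest of the arm was moderately low in each of them, while the long arm lay close to equal levels. In whole-cell RNA the same fractions for the tip were 0.246 and 0.234 in WT-res replicates 1 and 2 and 0.933 in the library labelled replicate 3. For the rest of the arm they were 0.751, 0.771 and 1.07. The arm and its tip were chosen on the cytoplasmic shifts, so the cytoplasmic values are a description. The count minimum of the rule used no whole-cell library. These libraries come from the same passages, however, and the members were chosen with earlier results of these data known. The whole-cell values are thus no independent test either.

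In cytoplasmic RNA the tip had a median log2 fold change of 2.05 (ΔRS-res over WT-res, quartiles 1.84 and 2.19), which is 4.14-fold. All 27 tip members were above 0. The rest of the arm had a median of 0.41 (quartiles 0.29 and 0.66), which is 1.32-fold, with 80 of 85 members above 0. Over the 14559 genes with the minimum count the median was 0.01 and 53.4% were above 0. The levels of the lines did not overlap, with every ΔRS-res library above every WT-res one, for 26 of 27 tip members and 62 of 85 members of the rest of the arm, beside 10.7% of all genes with the minimum count. In edgeR (quasi-likelihood test, p adjusted by Benjamini-Hochberg over 25949 genes), 24 tip members and 28 members of the rest of the arm passed an adjusted p of 0.05 as higher in ΔRS-res, and none as lower. The share of all tested genes that passed in that direction was 0.578%, and that of genes with the minimum count was 0.845%. DESeq2 passed 25 and 47 members (1.65% of all genes), and the 4 cytoplasmic libraries that the study kept gave 24 and 60 higher and 3 of the rest lower (10.7% of all genes). Since the rule used this contrast, nothing is read from these counts.

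The whole-cell RNA came from the same passages as the cytoplasmic RNA, so its tests use other libraries of the same passages. The sample list of the study gives both fractions of a replicate the same cell pellet, whereas its methods took them from separate wells. In WT-res replicate 3 the median tip gene stood at 0.236 of the ΔRS-res level in the cytoplasm and 0.933 in whole-cell RNA. The cause of that difference was not tested. With all 6 libraries the median shift was 1.08 in the tip and 0.23 in the rest of the arm. No member passed an adjusted p of 0.05 by edgeR's quasi-likelihood test, and neither did any of the 26793 genes tested (0.0%). At an unadjusted p under 0.05, 4 tip members were higher and none lower, and in the rest of the arm 21 were higher and 3 lower, beside 846 higher and 1703 lower of 14558 genes with the minimum count. DESeq2 on the same libraries called 1 tip member and 7 members of the rest of the arm higher and none lower, beside 1.01% of all genes called higher. The threshold of the study (unadjusted p under 0.05 and a log2 fold change over 0.5) passed 4 tip members and 5 of the rest, beside 1.18% of all genes. Without the library labelled WT-res replicate 3 the median was 2.07 (quartiles 1.96 and 2.31) in the tip, which is 4.18-fold, and 0.38 (quartiles 0.10 and 0.64) in the rest of the arm, which is 1.31-fold. In that comparison 25 of 27 tip members and 30 of 85 members of the rest of the arm were called higher and none lower, beside 0.886% of all genes tested and 1.35% of those with the minimum count. Since the library was left out for its levels of these members, these calls are a description. DESeq2 without that library called 27 tip members and 46 members of the rest of the arm higher and 2 of the rest lower, beside 4.5% of all genes called higher. The levels of the lines did not overlap for 13 tip members and 16 of the rest with all 6 libraries (12.2% of all genes with the minimum count). Without the library labelled WT-res replicate 3 they did not overlap for 27 and 55 (28.5%). The same passage numbers deviated together in the whole-cell libraries of the lines, and with the replicate number as a block the median tip shift over all 6 libraries was 1.42. That paired fit called 0 tip members (smallest adjusted p 0.0605, 26 higher at an unadjusted p under 0.05, beside 2956 of 14558 genes with the minimum count) and, in the rest of the arm, 11 higher and 1 lower, beside 2.78% of all genes called higher. Of the 14558 genes with the minimum count it called 726 higher and 1284 lower.

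**Figure D2:**
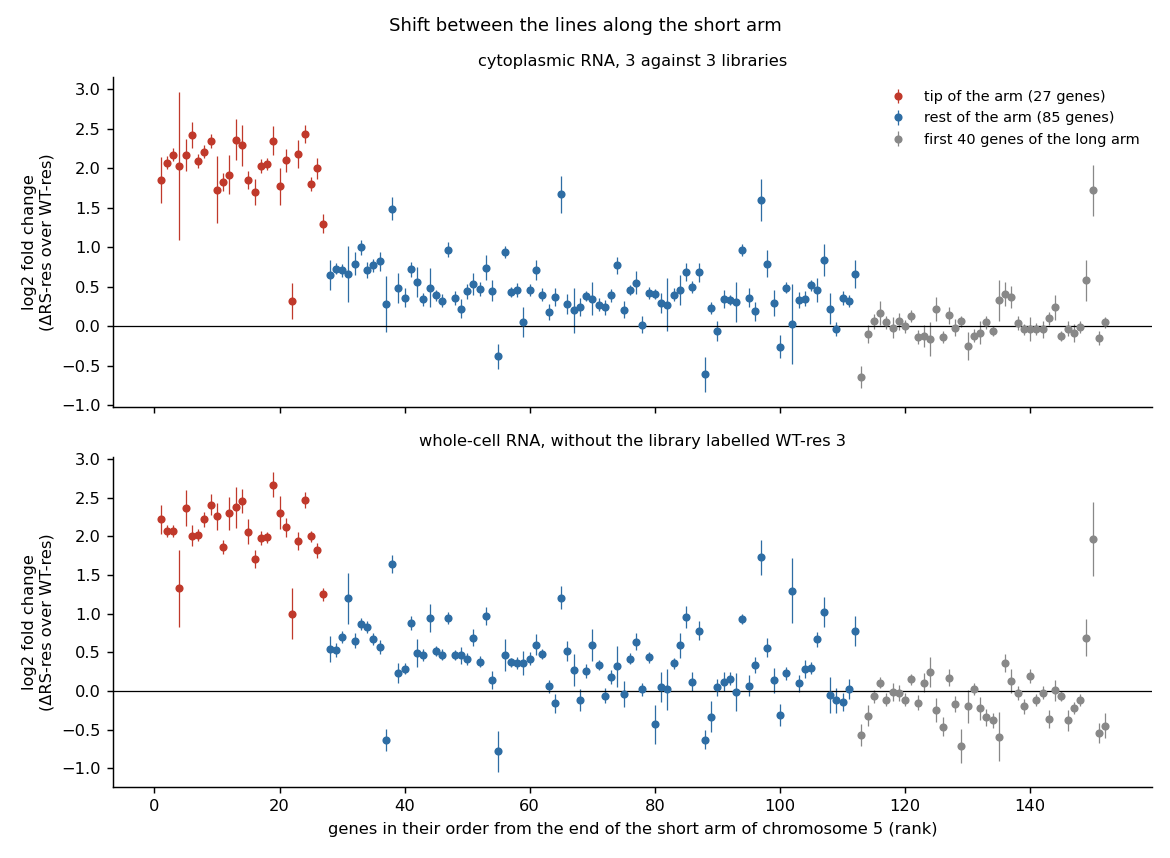
Log2 fold change (ΔRS-res over WT-res) of the 112 members and of the first 40 genes of the long arm with the minimum count, in their order along chromosome 5, in cytoplasmic RNA (top) and in RNA of the whole cell, leaving out WT-res replicate 3 (bottom); bars are standard errors from edgeR. The tip genes sit around 2, the next genes around 0.7 and the later genes of the arm around 0.4 in cytoplasmic RNA, and the first genes of the long arm scatter around 0.

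The tip holds genes of largely unrelated function. Its 9 members with the highest counts had a median cytoplasmic shift of 2.07 (quartiles 2.03 and 2.17), from 1.80 for LPCAT1 to 2.21 for PP7080. TRIP13 (chr5:892884-919357, plus strand), an ATPase that remodels the spindle checkpoint protein MAD2, had 43.3, 49.0 and 44.9 CPM in the WT-res cytoplasmic libraries and 188, 194 and 185 in the ΔRS-res ones. Its whole-cell levels were 40.1, 41.7 and, in the library labelled replicate 3, 148 CPM in WT-res, and 165, 165 and 158 in ΔRS-res. The groups did not overlap in either fraction, but the labelled library lay just under the ΔRS-res libraries and far from the other 2 of its own group. The log2 fold change of TRIP13 was 2.05 ± 0.0739 (SE) in the cytoplasm and 1.99 ± 0.0691 in whole-cell RNA without that library (edgeR, adjusted p = 8.01e-05), and 1.09 ± 0.479 with it (adjusted p = 0.413). PDCD6 (chr5:271621-314974, plus strand), which encodes the calcium-binding protein ALG-2, had 18.4, 21.0 and 20.4 CPM in WT-res and 90.5, 92.9 and 85.3 in ΔRS-res cytoplasm. In whole-cell RNA it had 23.4, 23.0 and 91.4 CPM in WT-res and 102, 92.8 and 97.4 in ΔRS-res. The third WT-res whole-cell value again lay with the other line, and the shift was 2.07 ± 0.0755 without it (adjusted p = 8.01e-05) and 1.08 ± 0.511 with it (adjusted p = 0.449).

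BRD9, a bromodomain subunit of the non-canonical BAF chromatin remodelling complex, is the head-to-head neighbour of TRIP13, with start sites 83 bases apart in the annotation. It had 11.5, 10.8 and 9.87 CPM in WT-res and 44.4, 42.6 and 44.4 in ΔRS-res cytoplasm. Its whole-cell levels were 16.9, 14.4 and 53.1 CPM in WT-res and 63.5, 60.8 and 60.6 in ΔRS-res. Its shifts of 2.03 ± 0.0869 in the cytoplasm and 1.98 ± 0.0949 in whole-cell RNA without the labelled library (adjusted p = 0.000176) were within 0.02 of those of TRIP13, and with all 6 libraries it had 1.13 ± 0.458 (adjusted p = 0.372). The promoter windows of this pair are shown because they overlap. They run from 250 bases before to 50 bases after the start in RefSeq on GRCh38.p14, 5′ to 3′ on the strand of the gene, with GC boxes (GGGCGG or its complement CCGCCC) and CCAAT boxes (CCAAT or ATTGG) in capitals. The window of BRD9 is chr5:892501-892800 on the minus strand and that of TRIP13 is chr5:892634-892933 on the plus strand. The BRD9 window lies inside the annotated gene, which reaches base 892801. Its RefSeq start thus differs from the start behind the distance of 83 bases.
BRD9: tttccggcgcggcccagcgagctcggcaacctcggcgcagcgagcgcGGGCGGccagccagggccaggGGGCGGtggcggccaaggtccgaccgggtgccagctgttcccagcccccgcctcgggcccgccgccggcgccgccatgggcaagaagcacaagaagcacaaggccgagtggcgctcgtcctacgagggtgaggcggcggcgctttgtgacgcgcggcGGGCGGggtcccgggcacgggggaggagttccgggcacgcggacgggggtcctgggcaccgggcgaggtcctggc
TRIP13: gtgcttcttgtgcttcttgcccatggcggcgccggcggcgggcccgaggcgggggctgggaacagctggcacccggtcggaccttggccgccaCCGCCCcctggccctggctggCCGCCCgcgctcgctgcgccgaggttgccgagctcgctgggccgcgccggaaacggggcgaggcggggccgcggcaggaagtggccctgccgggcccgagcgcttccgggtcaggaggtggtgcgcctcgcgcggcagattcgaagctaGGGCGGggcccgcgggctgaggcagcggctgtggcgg
Each of these windows holds 3 GC boxes and no CCAAT box, and 77.3% and 78.0% of their bases are G or C.

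The other coding genes of the tip were spread over secretion, ion transport, lipid metabolism and the cytoskeleton. EXOC3, a subunit of the exocyst that tethers secretory vesicles, had 12.4, 14.3 and 13.3 CPM in WT-res and 58.4, 54.6 and 57.8 in ΔRS-res cytoplasm. CLPTM1L had 15.6, 23.5 and 17.2 against 92.4, 92.0 and 70.4 CPM, with no overlap although ΔRS-res replicate 3 was lower than the other ΔRS-res libraries. LPCAT1, which makes phosphatidylcholine from its lyso form, had 9.36, 9.07 and 8.31 against 31.8, 29.4 and 31.8 CPM in the cytoplasm. In whole-cell RNA LPCAT1 was more abundant, with 35.3, 34.2 and 126 CPM in WT-res and 137, 134 and 145 in ΔRS-res, yet the shift without the labelled library was close to the cytoplasmic one at 2.0 ± 0.0735 (adjusted p = 8.01e-05) beside 1.80 ± 0.0895. SLC9A3, the sodium-proton exchanger NHE3, had the largest shift of a coding gene in the cytoplasm, from 4.40, 4.14 and 4.33 CPM to 22, 21.7 and 21.7 CPM, which is 2.34 ± 0.0881 on the log2 scale. The centrosomal gene CEP72 had 1.83, the potassium-chloride cotransporter gene SLC12A7 had 2.10 and the aryl hydrocarbon receptor repressor AHRR had 2.17. CCDC127 had 2.07 in both fractions when the labelled library was left out. In whole-cell RNA without it, EXOC3 was higher by 2.02, CLPTM1L by 1.94, SLC9A3 by 2.41, CEP72 by 1.86, SLC12A7 by 2.12 and AHRR by 2.37, and all of these passed the test (adjusted p between 8.01e-05 and 0.00462). With all 6 whole-cell libraries the 27 tip members lay between 0.40 and 1.31, with adjusted p from 0.29 to 0.787.

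PLEKHG4B, TPPP, which promotes tubulin polymerization, and NKD2, an inhibitor of Wnt signalling, were also higher but varied more within ΔRS-res. ΔRS-res replicate 3 stood above the others for each of them. PLEKHG4B had 7.72, 7.75 and 13.5 CPM in ΔRS-res cytoplasm against 3.51, 1.91 and 2.64 in WT-res. TPPP had 12.1, 11.4 and 20.1 against 4.60, 3.06 and 3.88 CPM, and NKD2 had 11.7, 10.3 and 16.7 against 4.66, 2.90 and 3.81 CPM. The same 3 genes were highest in ΔRS-res replicate 3 in whole-cell RNA too, at 16.7, 18.1 and 16.4 CPM. Their whole-cell shifts without the labelled library were 2.22, 2.30 and 2.31, with adjusted p of 0.00281, 0.00374 and 0.00374.

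**Figure D3:**
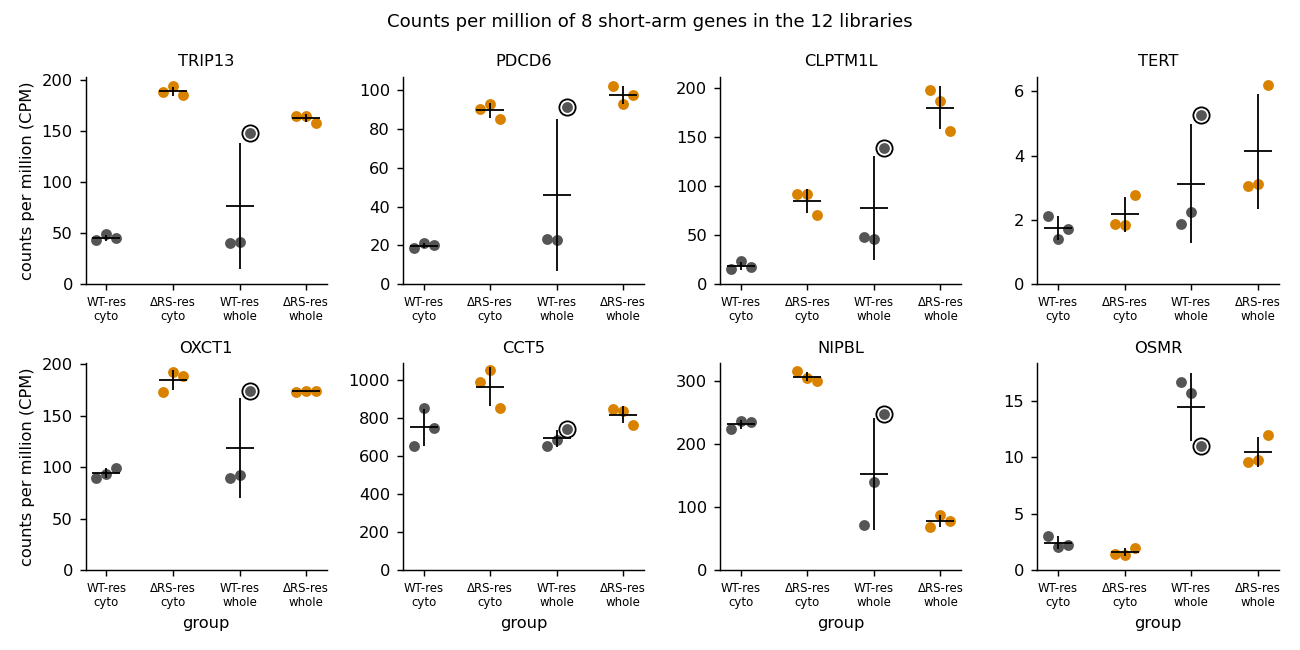
CPM of 4 tip genes (top row) and 4 genes of the rest of the arm (bottom row) in the 12 libraries; each point is a library, in the order of its replicate number from left to right, and the bar and line are the mean and SD of the 3 libraries. The ringed point is WT-res replicate 3 of the whole-cell RNA, which lies with ΔRS-res for TRIP13, PDCD6, CLPTM1L and OXCT1, and TERT and OSMR differ from their neighbours.

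TERT departed from the genes on either side of it. It was scarcely measured, with 2.13, 1.41 and 1.71 CPM in WT-res and 1.87, 1.85 and 2.79 in ΔRS-res cytoplasm, and the groups overlapped. Its cytoplasmic shift of 0.32 ± 0.227 was the lowest of the tip, while its nearest members, SLC12A7 and CLPTM1L, had 2.10 ± 0.142 and 2.18 ± 0.176. In whole-cell RNA TERT had 1.87, 2.25 and 5.26 CPM in WT-res and 3.07, 3.13 and 6.20 in ΔRS-res, so that the replicate 3 libraries of both lines were highest. Without the labelled library its shift was 1.00 ± 0.332, which did not pass the test (adjusted p = 0.160). TERT and the readthrough transcript PDCD6-AHRR (1.33 ± 0.499, adjusted p = 0.202) were the 2 tip members not called in whole-cell RNA without that library. PDCD6-AHRR shares its exons with PDCD6 and AHRR, so its estimated counts depend on how reads were divided among them.

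The non-coding members of the tip had shifts of the same order as the coding ones. The 7 long non-coding RNAs had a median cytoplasmic shift of 2.35 (1.73 to 2.43), and the 18 coding genes had 2.04 (0.32 to 2.34). LINC02982 had 1.91, 1.41 and 1.80 CPM in WT-res and 7.63, 8.03 and 10.4 in ΔRS-res cytoplasm, with no overlap. ENSG00000288930, which starts 96 bases from ZDHHC11B on the other strand, had 1.73, 1.69 and 1.62 against 5.86, 6.11 and 6.21 CPM, and its shift was 1.85 ± 0.116 in the cytoplasm and 2.06 ± 0.161 in whole-cell RNA without the labelled library (adjusted p = 0.00193). ENSG00000286388, which starts 98 bases from CLPTM1L on the other strand, had 3.25, 3.79 and 3.20 against 19.1, 19.3 and 16.9 CPM. The tip held 6 head-to-head pairs of members with starts within 1000 bases, and the cytoplasmic shifts within these pairs differed by 0.02 to 0.48. The pairs include EXOC3-AS1 with EXOC3 (2.42 and 2.09) and PP7080 with SLC9A3-AS1 (2.21 and 1.73). In whole-cell RNA without the labelled library these pairs had 2.01 and 2.02, and 2.22 and 2.26. CLPTM1L and ENSG00000286388 lay farthest apart there, at 1.94 and 2.47. Since the strand setting of the counting is not given in the sources used here, reads of antisense pairs cannot be told apart. The 2 pseudogenes at the inner end of the tip were SDHAP3, a copy of SDHA, at 2.0 ± 0.133, and PDCD6P1, a copy of PDCD6, at 1.30 ± 0.117. Both are near-identical to genes of the tip, and so are ZDHHC11 (1.70) and ZDHHC11B (2.29), a pair of palmitoyltransferase genes, to each other. Their values are uncertain where reads could be split between the copies.

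The shift did not hold its level up to the 2 Mb limit. The 19 members in the first 1 Mb had a median cytoplasmic shift of 2.07 and the 8 between 1 and 2 Mb had 1.90. The last member before the limit, PDCD6P1 at chr5:1598920-1633984, had 1.30, and MRPL36 and NDUFS6, which start near 1.80 Mb and were left out by the rule, had 1.10 and 1.07 in the cytoplasm and 1.06 and 1.05 in whole-cell RNA without the labelled library. Between there and 5.39 Mb no gene reached the minimum count. The next genes were ENSG00000286753 at 0.65, ICE1 at 0.73 and MED10 at 0.71 in the cytoplasm, and 0.54, 0.53 and 0.70 in whole-cell RNA without the labelled library. The genes nearest the limit thus lay between the level of the outer tip and that of the rest of the arm.

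Along the rest of the arm the shift was larger towards the tip. The 11 members between 2 and 10 Mb had a median of 0.73 (1.66-fold) in the cytoplasm and 0.67 in whole-cell RNA without the labelled library. The 15 members between 10 and 20 Mb had 0.47 in both. The 3 members between 20 and 30 Mb had 0.45 and 0.14, the 34 between 30 and 40 Mb had 0.38 and 0.33, and the 22 from 40 Mb to the end of the arm had 0.35 and 0.19. With all 6 whole-cell libraries the medians of these windows, from 2 Mb on, were 0.44, 0.33, -0.48, 0.18 and 0.09, so the order of the 3-gene window changed. The last members of the arm, EMB, PARP8 and ENSG00000289056, had cytoplasmic shifts of 0.36, 0.32 and 0.66. The first genes past the arm, ISL1, ITGA1 and PELO, had -0.64, -0.10 and 0.06. ITGA1 and PELO start at the same base in the annotation, so reads of this pair may be split between them.

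Genes of chromatin and transcription in the rest of the arm included 6 listed members, of which 3 passed the whole-cell test without the labelled library, all higher. Over the rest of the arm 30 of 85 members passed there, and over all genes with the minimum count 196 of 14557 (1.35%), and the counts of the lists that follow are to be read against these. ICE1, a subunit of the little elongation complex that serves small nuclear RNA genes, had 121, 137 and 129 CPM in WT-res and 218, 211 and 212 in ΔRS-res cytoplasm, with no overlap. Its whole-cell shift without that library was 0.53 ± 0.0927 (adjusted p = 0.0381). MED10, a Mediator subunit, had 35.0, 39.7 and 40.9 against 63.3, 66.1 and 60.4 CPM in the cytoplasm, and 35.8, 34.5 and 57.0 against 59.5, 54.1 and 57.6 CPM in whole-cell RNA. Again only the third WT-res whole-cell library lay with ΔRS-res, and the shift without it was 0.70 ± 0.0754 (adjusted p = 0.00759). ZNF622 was higher by 0.41 ± 0.0763 (adjusted p = 0.0489), while the zinc finger gene ZNF131 had 0.23 ± 0.0827 (adjusted p = 0.188). SUB1, the coactivator PC4, and NIPBL, the cohesin loader, had opposite signs in the fractions and are given below. With all 6 libraries the 6 genes had a whole-cell median of 0.15 and none passed (adjusted p from 0.22 to 0.924), with ICE1 at 0.23 and MED10 at 0.43.

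Of the 7 genes of RNA and ribosome making, 3 passed the whole-cell test without the labelled library, all higher. NSUN2, an RNA methyltransferase, had 161, 223 and 170 CPM in WT-res and 343, 344 and 270 in ΔRS-res cytoplasm. It had 184, 182 and 228 against 310, 299 and 252 CPM in whole-cell RNA, where all 3 WT-res libraries were below ΔRS-res, and its shift was 0.65 ± 0.0978 without the labelled library (adjusted p = 0.0216) and 0.53 ± 0.119 with it (adjusted p = 0.213). DROSHA, the nuclease that cuts primary microRNA transcripts, had 163, 175 and 165 against 223, 221 and 231 CPM in the cytoplasm. In whole-cell RNA it had 155, 158 and 179 against 204, 205 and 201 CPM with no overlap, a shift of 0.37 ± 0.0605 without the labelled library (adjusted p = 0.0277). TENT4A, a poly(A) polymerase, was higher by 0.83 ± 0.0802 (adjusted p = 0.00462). ZFR (0.06), PAIP1 (0.30), DNAJC21 (0.18) and BRIX1 (-0.06) did not pass. The 7 genes had a median of 0.13 with all 6 libraries and none passed (adjusted p from 0.213 to 0.969).

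DROSHA and its head-to-head neighbour C5orf22, 91 bases away on the other strand, are shown as the pair of the rest of the arm that matches BRD9 and TRIP13. C5orf22 had 81.9, 96.3 and 85 CPM in WT-res and 126, 123 and 112 in ΔRS-res cytoplasm. Their cytoplasmic shifts were 0.43 and 0.46, and their whole-cell shifts without the labelled library were 0.37 and 0.36, although C5orf22 did not pass there (adjusted p = 0.0774). The window of DROSHA is chr5:31532044-31532343 on the minus strand and that of C5orf22 is chr5:31532051-31532350 on the plus strand, with the same motifs in capitals. Here too the RefSeq starts of the windows differ from the annotated starts behind the distance of 91 bases.
DROSHA: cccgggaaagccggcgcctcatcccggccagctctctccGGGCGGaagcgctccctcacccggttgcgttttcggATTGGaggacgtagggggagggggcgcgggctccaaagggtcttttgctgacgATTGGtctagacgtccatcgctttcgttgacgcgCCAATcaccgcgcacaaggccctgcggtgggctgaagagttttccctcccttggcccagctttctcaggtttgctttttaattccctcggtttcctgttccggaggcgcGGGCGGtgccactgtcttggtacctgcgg
C5orf22: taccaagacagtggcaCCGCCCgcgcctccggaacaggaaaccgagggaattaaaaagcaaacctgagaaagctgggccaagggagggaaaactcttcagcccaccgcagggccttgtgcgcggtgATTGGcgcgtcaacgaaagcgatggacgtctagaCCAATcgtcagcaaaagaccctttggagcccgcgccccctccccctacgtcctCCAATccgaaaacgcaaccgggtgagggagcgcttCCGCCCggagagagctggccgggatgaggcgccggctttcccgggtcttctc
These windows cover nearly the same bases and hold 2 GC boxes and 3 CCAAT boxes each. The 8 head-to-head pairs of the rest of the arm differed in cytoplasmic shift by 0.01 to 0.38 within a pair. In whole-cell RNA without the labelled library, DROSHA and C5orf22 were the closest pair and NIPBL-DT and NIPBL the farthest apart (0.44 and -0.43). LMBRD2 and SKP2 had -0.04 and 0.42 there, and NNT-AS1 and NNT had 0.67 and 1.02. MARCHF6-DT and MARCHF6 had 0.49 and 0.47, and ATPSCKMT and CCT5 had 0.23 and 0.29. NSUN2 and SRD5A1 had 0.65 and 0.87, and GOLPH3 and GOLPH3-DT had 0.42 and 0.60.

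Metabolic and mitochondrial genes had medians of 0.80 in the cytoplasm and 0.77 in whole-cell RNA without the labelled library, with 7 of 10 members called higher in the latter and none lower, beside 30 of 85 over the rest of the arm. Whether the list differs from the rest of the arm was not tested. With all 6 libraries its whole-cell median was 0.40 and none passed (adjusted p from 0.324 to 0.976). OXCT1, the mitochondrial enzyme that starts the use of ketone bodies, had 90, 93.2 and 99.4 CPM in WT-res and 173, 192 and 188 in ΔRS-res cytoplasm. Its whole-cell levels were 89.2, 92.4 and 174 CPM in WT-res and 173, 174 and 174 in ΔRS-res, so the labelled library could not be told from the other line. The shift of OXCT1 was 0.97 ± 0.0749 in the cytoplasm and 0.93 ± 0.0626 in whole-cell RNA without it (adjusted p = 0.000852), and 0.55 ± 0.244 with it (adjusted p = 0.416). SRD5A1, a steroid 5-alpha-reductase, had 15.3, 17.2 and 15.9 against 30.1, 32.1 and 35.1 CPM in the cytoplasm and was higher in whole-cell RNA by 0.87 ± 0.0780 (adjusted p = 0.00324). MTRR, which keeps methionine synthase active, was higher by 0.67 ± 0.0764, FASTKD3, a mitochondrial RNA-binding protein, by 0.57 ± 0.0893, the hydrolase gene CMBL by 0.88 ± 0.0871 and the mitochondrial NAD kinase NADK2 by 0.64 ± 0.115. SELENOP, the plasma selenium carrier, had only 0.588, 0.285 and 0.471 against 1.25, 1.49 and 1.30 CPM in the cytoplasm and was called higher in whole-cell RNA by 1.73 ± 0.225 (adjusted p = 0.0122). NNT, which couples the proton gradient to NADPH, had 107, 85.7 and 115 against 148, 156 and 244 CPM in the cytoplasm. ΔRS-res replicate 3 was highest for NNT in both fractions, at 244 and 246 CPM, and the whole-cell shift of 1.02 ± 0.193 did not pass (adjusted p = 0.0509). AMACR had 0.52 ± 0.127 (adjusted p = 0.0956). The glutamate transporter gene SLC1A3 had 50.0, 53.5 and 52.2 CPM in WT-res and 53.0, 54.9 and 48.9 in ΔRS-res whole-cell RNA, a shift of 0.02 ± 0.0798, and 0.02 in the cytoplasm.

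In the list of protein folding and ubiquitin, 5 of 6 genes were members, FBXL7 being below the minimum, and 3 passed the whole-cell test without the labelled library, all higher. CCT5, a subunit of the cytosolic chaperonin, had the highest level of all members. It had 654, 849 and 749 CPM in WT-res and 989, 1048 and 850 in ΔRS-res cytoplasm, where the lowest ΔRS-res library was barely above the highest WT-res one. Its whole-cell shift was 0.29 ± 0.0729 without the labelled library and did not pass (adjusted p = 0.103). SKP2, the F-box protein that targets the cell-cycle inhibitor p27, had 135, 142 and 145 against 189, 196 and 195 CPM in the cytoplasm and was higher in whole-cell RNA by 0.42 ± 0.0706 (adjusted p = 0.0323). The ubiquitin ligase gene MARCHF6 was higher by 0.47 ± 0.0776 (adjusted p = 0.0294) and OTULIN, which removes linear ubiquitin chains, by 0.47 ± 0.0671 (adjusted p = 0.0177). FBXO4 had 0.34 ± 0.104 and did not pass (adjusted p = 0.137). The 5 genes had a median of 0.24 with all 6 libraries and none passed (adjusted p from 0.289 to 0.796).

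Signalling genes were mixed. Of the 13 listed, GHR, IL7R, NPR3, PRLR and PTGER4 were below the minimum, and 3 of the 8 members passed the whole-cell test without the labelled library, all higher. GDNF, a neurotrophic ligand, had 4.77, 4.85 and 4.96 CPM in WT-res and 7.24, 7.55 and 8.73 in ΔRS-res cytoplasm and was higher in whole-cell RNA by 0.96 ± 0.146 (adjusted p = 0.0226). DAP and TRIO were higher by 0.52 ± 0.0668 (adjusted p = 0.0113) and 0.47 ± 0.0730 (adjusted p = 0.0243). The AMP-activated kinase gene PRKAA1 had 111, 117 and 117 against 144, 146 and 143 CPM in the cytoplasm, with no overlap, and a whole-cell shift of 0.16 ± 0.0873 that did not pass (adjusted p = 0.368). OSMR, the oncostatin M receptor, went the other way. It had 3.08, 2.07 and 2.26 CPM in WT-res and 1.46, 1.35 and 2.02 in ΔRS-res cytoplasm, and 16.7, 15.7 and 11 against 9.58, 9.82 and 12.0 in whole-cell RNA. The labelled library lay inside the ΔRS-res range for OSMR too. Its shifts of -0.61 ± 0.221 in the cytoplasm and -0.63 ± 0.123 in whole-cell RNA without that library were nearly equal, and the latter missed the threshold (adjusted p = 0.0561). LIFR, a related receptor encoded nearby, had 0.50 ± 0.0754 in the cytoplasm and 0.12 ± 0.125 in whole-cell RNA. With all 6 libraries the 8 members had a whole-cell median of 0.01 and none passed (adjusted p from 0.228 to 0.982), with OSMR at -0.47 and GDNF at 0.57.

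Among the 8 genes of the cilium, membrane and cytoskeleton, 3 passed the whole-cell test without the labelled library, all higher. These were the unconventional myosin gene MYO10 (0.38 ± 0.0674, adjusted p = 0.0375), the ER-phagy receptor RETREG1 (0.69 ± 0.108, adjusted p = 0.0249) and MTMR12 (0.48 ± 0.0674, adjusted p = 0.0169). GOLPH3, a Golgi phosphoinositide reader, had 93.3, 108 and 101 CPM in WT-res and 140, 142 and 134 in ΔRS-res cytoplasm, and 0.42 ± 0.0800 in whole-cell RNA (adjusted p = 0.0502). RAI14 (0.26), ANKH (0.46), CPLANE1 (0.05) and LMBRD2 (-0.04) did not pass. None of the 3 DNA damage genes passed. RAD1, a subunit of the checkpoint clamp, had 0.34 ± 0.0671 (adjusted p = 0.0578), WDR70 had 0.36 ± 0.0713 (adjusted p = 0.0578) and PARP8 had 0.03 ± 0.132. Of the adhesion and guidance genes, the cadherins CDH6, CDH10, CDH12 and CDH18 and CTNND2 and SEMA5A were below the minimum, and EMB, a partner of lactate transporters, had 0.36 in the cytoplasm and -0.14 in whole-cell RNA. With all 6 libraries the cilium, membrane and cytoskeleton genes had a whole-cell median of 0.28, the DNA damage genes 0.23 and EMB -0.25, and none passed.

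The members of the rest of the arm that lay farthest from its median included sparse ones. The highest cytoplasmic shifts were those of TARS1-DT (1.67 ± 0.233), SELENOP (1.60 ± 0.266), MIR4458HG (1.49 ± 0.140), SRD5A1 (1.00) and OXCT1 and OTULINL (both 0.97). TARS1-DT had 0.653, 0.699 and 0.541 CPM in WT-res and 2.30, 2.28 and 1.43 in ΔRS-res, and MIR4458HG had 3.09, 3.25 and 4.08 against 9.07, 10.5 and 9.68. Both were also called higher in whole-cell RNA without the labelled library, by 1.21 ± 0.153 and 1.64 ± 0.118. The 5 members below 0 in the cytoplasm were OSMR, the pseudogene HSPD1P1 (-0.38), ANXA2R-AS1 (-0.26), DAB2 (-0.06) and ENSG00000272335 (-0.03). HSPD1P1 had 1.05, 1.14 and 1.02 CPM in WT-res and 0.839, 0.840 and 0.785 in ΔRS-res. It resembles its parent gene HSPD1 on another chromosome, so its value is uncertain where reads could be split between them.

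Cytoplasmic and whole-cell shifts were close for most members once the labelled library was left out. The values differed by less than 0.3 on the log2 scale for 87 of 112 members, 97 were above 0 in both fractions and 4 were below 0 in both. With all 6 whole-cell libraries these counts were 50, 88 and 4, and the sign differed for 20 members. The same counts over all genes are not given here. Small shifts were common there, as genes of other chromosomes had quartiles of -0.10 and 0.12 in the cytoplasm. Their quartiles in whole-cell RNA without the labelled library were -0.15 and 0.16. The median difference, cytoplasm less whole cell, was -0.02 in the tip and 0.07 in the rest of the arm. A test of the difference itself, the line by fraction interaction over all 12 libraries, called no member, and it called 1 of 26686 genes in all (0.00375%), ENSG00000263244 on chromosome 16. Its median was 0.95 in the tip, with 26 of 27 members above 0, and 0.24 in the rest of the arm, with 75 of 85. Over all genes with the minimum count the median was -0.02 and 44.8% were above 0. Errors in the tip were wide with the labelled library included, as for TRIP13 (0.95 ± 0.545). The absence of calls thus cannot show that the shifts were equal. At an unadjusted p under 0.05 this interaction gave 13 members, all with the larger shift in the cytoplasm, beside 827 genes in that direction and 135 in the other of 14559 with the minimum count. DESeq2 also called none (16 at an unadjusted p under 0.05, beside 909 in that direction of 14559). Without the labelled library the interaction had a median of -0.04 in the tip and 0.04 in the rest of the arm, called no member, and gave 6 members at an unadjusted p under 0.05, beside 610 of 14559 genes in that direction.

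**Figure D4:**
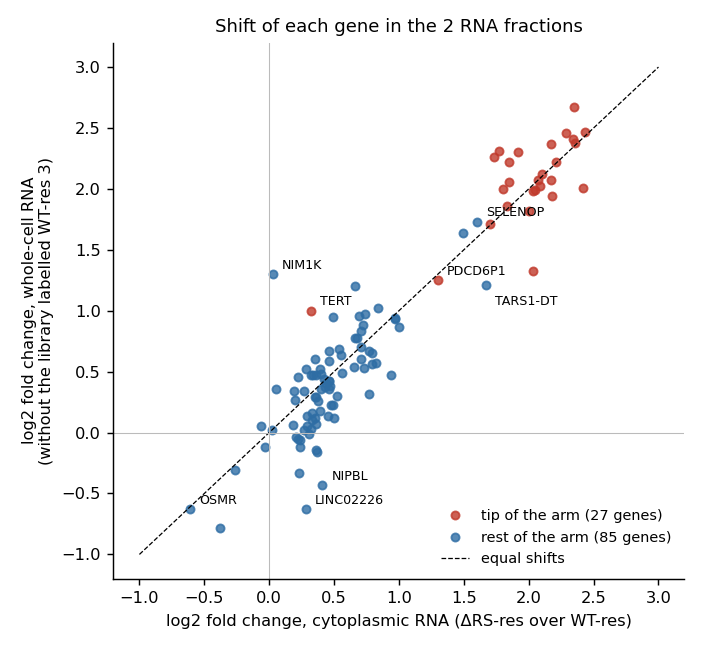
Log2 fold change (ΔRS-res over WT-res) of each member in cytoplasmic RNA (horizontal) and in RNA of the whole cell, leaving out WT-res replicate 3 (vertical); red points are the 27 tip genes, blue points the 85 genes of the rest of the arm, and the dashed line marks equal shifts. Tip genes gather near 2 on both axes, TERT and NIM1K lie above the line, and NIPBL and LINC02226 are among the points below 0 on the vertical axis only.

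Without the labelled library, the sign differed between the fractions in 11 members, all in the rest of the arm. These were SUB1, BRIX1, CARD6, DAB2, LMBRD2, NIPBL, RICTOR, EMB, GUSBP18, LINC02226 and MRPS30-DT. NIPBL had 224, 237 and 236 CPM in WT-res and 316, 306 and 301 in ΔRS-res cytoplasm, with no overlap. In whole-cell RNA it had 71.6, 140 and 248 CPM in WT-res and 68.9, 88.1 and 77.8 in ΔRS-res. Its whole-cell levels spread widely within WT-res, and the whole-cell shift of -0.43 ± 0.250 without the labelled library did not pass (adjusted p = 0.382), nor did -0.97 ± 0.386 with it (adjusted p = 0.365). RICTOR, a subunit of the mTORC2 kinase complex, had 90.7, 90 and 98.1 against 108, 106 and 114 CPM in the cytoplasm, and 41.5, 67.8 and 107 against 37.7, 47.3 and 45.4 in whole-cell RNA. SUB1 had 233, 287 and 282 against 334, 386 and 315 CPM, and 172, 227 and 287 against 182, 193 and 162. For these 3 genes the labelled library was the highest of the 6 whole-cell libraries, above ΔRS-res as well. The labelled library was the highest of the 6 for 37 of 85 members of the rest of the arm (43.5%) and for 1 of 27 tip members, beside 20.1% of all genes with the minimum count. LINC02226 was the only member called lower under the paired whole-cell fit (-0.44, adjusted p = 0.0307). It had 34.7, 30.7 and 21.4 CPM in WT-res and 22.4, 23.8 and 17.3 in ΔRS-res whole-cell RNA, and 3.18, 5.41 and 2.84 against 5.99, 5.39 and 2.50 in the cytoplasm. NIM1K had 2.0, 0.707 and 2.05 against 0.895, 1.13 and 2.80 CPM in the cytoplasm (0.03 ± 0.510) and 0.606, 0.738 and 3.0 against 1.03, 1.28 and 2.65 in whole-cell RNA, where replicate 3 was high in both lines.

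Several members are subunits of complexes whose other subunits are encoded elsewhere, and their values are set side by side here. The 14 members of this kind had a median cytoplasmic shift of 0.42, and their 65 listed partners, all with the minimum count, had a median of 0.01 (-0.65 to 0.23). In the cytoplasm 0 partners were called higher and 2 lower, beside 123 higher and 213 lower of 14559 genes with the minimum count. These were PRKAG2 (-0.65 ± 0.0811), the gamma subunit partner of PRKAA1, and CUL1 (-0.59 ± 0.0893), the scaffold of the SKP2 ubiquitin ligase. The same 2 were lower in whole-cell RNA without the labelled library, by -0.60 ± 0.0875 (adjusted p = 0.0191) and -0.69 ± 0.0662 (adjusted p = 0.00462), where again 0 partners were called higher, beside 196 higher and 268 lower of 14557 genes. In the cytoplasm the 5p subunit had the highest shift of its complex in 14 of 14 cases, which is a description, since the members were chosen on these shifts. TRIP13 had 2.05, whereas its substrate MAD2L1 had 0.03 and its adaptor MAD2L1BP 0.08. EXOC3 had 2.09, whereas the other 7 exocyst subunits lay between -0.09 and 0.23. BRD9 had 2.03 beside BICRA at 0.02, BICRAL at 0.03 and SMARCA4 at 0.08. CCT5 had 0.36, whereas the 7 other chaperonin subunits lay between -0.06 and 0.10. In whole-cell RNA without the labelled library the 5p subunit was highest in 11 of 14 cases and the partners had a median of -0.07, and with all 6 libraries in 11 of 14 with a partner median of -0.02. NIPBL was among the exceptions without that library, at -0.43, below SMC1A at 0.17, MAU2 at -0.01 and RAD21 at -0.04 and above SMC3 at -0.80, STAG2 at -0.69 and STAG1 at -0.50.

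**Figure D5:**
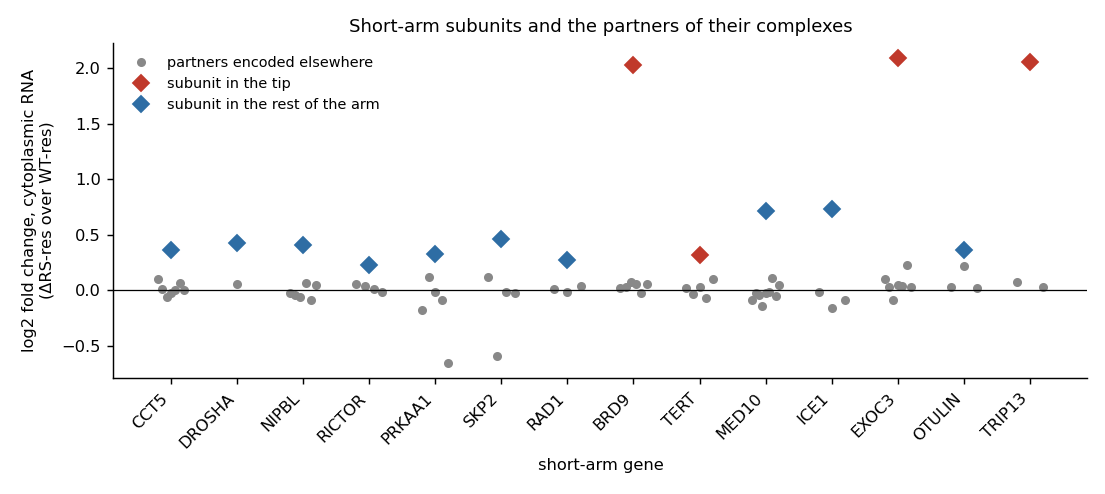
Log2 fold change in cytoplasmic RNA (ΔRS-res over WT-res) of 14 short-arm genes that are subunits or direct partners in a complex (diamonds, red for the tip and blue for the rest of the arm) and of the 65 partners encoded elsewhere (grey points). Each diamond lies above the grey points of its column, and PRKAG2 and CUL1 are the low points near -0.65 and -0.59.

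Shifts of well-counted members and of single transcripts are given as a description, since the minimum count was set on the same cytoplasmic libraries. A gene near the minimum could pass it through its ΔRS-res level alone, as ENSG00000289088 (mean CPM of 0.259 for WT-res, 1.34 for ΔRS-res) and PDCD6-AHRR (0.513 and 2.07 CPM) show. The 9 tip members with the highest counts (2042 to 14714) had a median cytoplasmic shift of 2.07, and the 28 members of the rest of the arm with the highest counts (10695 to 105972) had 0.40. Of 57 transcripts of the tip with a mean of at least 100 counts, from 26 genes, all 57 had a log2 ratio above 0 in the cytoplasm, with a median of 2.04. Of 256 such transcripts of 82 genes of the rest of the arm, 239 were above 0, with a median of 0.42. Transcripts of a gene share reads, so these are not independent of the gene values. The share above 0 over all transcripts is not given here, so these counts carry no comparison. The members nearest the count limit were ENSG00000289088 at a mean of 101.3 counts (2.36), SELENOP at 111.7 (1.60) and C1QTNF3 at 115.4 (0.20) inside, and RBBP4P1 at 97.1 (-0.07), EEF1A1P13 at 96.2 (-0.35) and RANBP3L at 93.5 (0.93) outside, with cytoplasmic shifts in parentheses.

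Genes of the arm that missed the minimum count were summed. The 50 such genes of the tip had together 1.79, 1.72 and 1.96 CPM in WT-res and 5.23, 5.24 and 4.68 in ΔRS-res cytoplasm, which is 2.77-fold. In whole-cell RNA they had 2.67, 2.11 and 6.25 CPM in WT-res and 7.00, 7.44 and 6.73 in ΔRS-res, with the labelled library again nearer to ΔRS-res. The 559 such genes of the rest of the arm had 18.6, 16.6 and 18.0 against 21.4, 20.9 and 22.9 CPM in the cytoplasm, which is 1.23-fold. The sums lay in the same order as the members, tip above rest, at smaller folds.

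RefSeq promoter windows were matched for 20 of 27 tip members and 66 of 85 members of the rest of the arm. The GC box GGGCGG was found, on either strand, in 85% of the tip windows and 68.2% of the others, beside 44.6% of 27305 windows of all genes. The median G and C content was 77.2% in the tip, 66.5% in the rest of the arm and 58.3% over all windows. The CCAAT box was in 25.0%, 33.3% and 35.7%, and the TATA box TATAAA in 5.0%, 3.03% and 12.0%. AAGGTCA, the element bound by the oestrogen-related receptors that PGC-1α coactivates, was in 0.0%, 4.55% and 3.97%. CGCATGCG, the core of the site of the respiratory factor NRF1, was in 0.0%, 1.52% and 2.19%. The windows of all genes include genes below the minimum count, whereas the members passed it, so these shares are not like for like. The shares over genes with the minimum count are not given here. PDCD6 and PDCD6-AHRR have the same window, which was counted for each. These are matches of letters and not evidence of binding.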

How the data were processed

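RNA was measured in 12 libraries of 2 HEK293 lines, 3 per line and RNA fraction, grouped by the deposited sample labels. The authors depleted ribosomal RNA and used Trim Galore for trimming, STAR for alignment to GRCh38 and RSEM for transcript quantification; the deposited values are expected counts per transcript (estimated counts, not normalized), for which the strand setting is not given in the sources used here. A gene whose transcripts resemble another's therefore shares counts with it. Here, counts were summed per gene, rounded and placed by the GENCODE 44 annotation, which matched 99.83% of genes and 99.94% of counts. Genes with a mean count above 2 were scaled by TMM and tested with edgeR 4.0.16 (quasi-likelihood test, R 4.3.3) on line, per fraction, with Benjamini-Hochberg adjustment over all genes tested and calls at an adjusted p of 0.05; DESeq2 1.42.0 was an alternative. The interaction was fitted over all 12 libraries. The script was tested on simulated data. CPM are after TMM scaling. Transcript ratios used a pseudocount of 0.01 CPM.

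The study left 2 cytoplasmic libraries out (WT-res replicate 2 and ΔRS-res replicate 3); all 6 were used here, since the rule for the members used all 6, and the study's 4 were an alternative. Where WT-res whole-cell replicate 3 was left out, after its levels on 5p were seen, that group had 2 libraries. Whole-cell libraries with the same number deviated together between the lines (correlations of deviations 0.539, 0.540 and 0.670), so the paired fit is given beside the whole-cell results, whereas the cytoplasmic ones did not all do so (-0.413, 0.598 and 0.473). No pair of libraries agreed within counting noise. Named genes are every tip member, role lists of the rest of the arm, the highest levels, the 5 highest and 5 lowest shifts, members whose sign differs between fractions, genes beside the ends of the tip and of the arm, and complex partners; C5orf22, NIM1K, OTULINL and the genes beside the count limit fall outside that rule and were named after their values were seen. The members and lists were chosen with earlier results of these data known. Total counts per library of 90333190 to 144628005 set the precision of each value, and sparse genes have the wide errors given.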

Additional observations from a re-analysis of the deposited data

How the results depend on the processing

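Of 128 values recomputed under alternatives, 110 kept their side or stayed within the spread between replicates or within 1.5 times the count, 18 moved and 0 reversed. For the whole-cell tip that spread was 0.805 on the log2 scale, with the library labelled WT-res replicate 3 included, beside 0.0408 in the cytoplasm. Whole-cell tip medians of 0.74 and 1.42 thus counted as kept beside the main value of 1.08. The median tip shift in the cytoplasm lay between 2.04 and 2.08 and that of the rest of the arm between 0.40 and 0.43 when each library was left out in turn. The number of members called higher in the cytoplasm then ran from 21 to 24 in the tip and from 8 to 29 in the rest of the arm, with 8 without WT-res replicate 1, 9 without WT-res replicate 3 or ΔRS-res replicate 1 and 10 without ΔRS-res replicate 2. With the 4 cytoplasmic libraries the study kept, the median of the rest of the arm was 0.44 and 60 of its members were called higher; DESeq2 on all 6 called 47. In whole-cell RNA, leaving out each library in turn gave tip medians of 0.74 to 2.07, medians of the rest of the arm of 0.10 to 0.38, 0 to 25 tip members called and 0 to 30 of the rest; all of these calls came without the library labelled WT-res replicate 3. DESeq2 without that library, chosen after seeing the data, gave a tip median of 2.07 and 27 and 46 calls, and DESeq2 on all 6 gave 1 and 7. The study's threshold (unadjusted p under 0.05 and a log2 fold change over 0.5) gave 4 tip members and 5 of the rest. With the replicate number as a block, whole-cell calls were 0 in the tip and 11 in the rest, and cytoplasmic calls were 25 and 37; the block changed no interaction call. The cause of the differences between fits was not tested. What depth limits was not tested.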
